A study of Mus musculus with 4 samples.

Results

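Open chromatin of Sod2 knockout dermal fibroblasts was set against that of Sod2+/+ control fibroblasts, over the 60000 strongest peaks of each of the 2 ATAC-seq libraries. These 120000 peaks were chosen by the −log10 p that the authors' peak caller gave each peak, with ties ordered by fold enrichment, out of 1018178 peaks in the 2 lists and 1705856 in the 4 lists of the series. A peak was matched when it overlapped a peak of the other top list by 1 bp or more. Of the control peaks 43423 were matched and 16577 were not (control-only), and of the knockout peaks 44403 were matched and 15597 were not (knockout-only).

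Both libraries came from dermal fibroblasts of C57BL/6 mice and are labelled with 100 days, a time whose meaning the labels do not state. The control is labelled Sod2+/+ and the knockout Sod2-/-, and the latter is called a conditional knockout. The labels used here name no Cre driver, no deleted exon, no number of animals pooled and no passage. Vehicle-treated Sod2+/+ fibroblasts, also at 100 days, served as the measure of how far libraries without the knockout differ. Sod2+/+ fibroblasts given rotenone, labelled at 250 µM, are mentioned only where their list bears on the comparison of knockout and control. With 1 library per group no replicate error could be had, so no p-value is given. Intervals are 95% Wilson intervals that cover counting error only, and a difference between knockout and control cannot be told apart from a difference between these preparations.

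Sod2 encodes the manganese superoxide dismutase of the mitochondrial matrix, which turns the superoxide leaked by the respiratory chain into hydrogen peroxide. Dermal fibroblasts build the collagen and elastic matrix of the skin and signal to the epidermis, and loss of mitochondrial superoxide defence in them has been used as a model of skin aging. In ATAC-seq the Tn5 transposase cuts and tags DNA that is not wrapped in nucleosomes, so peaks mark promoters, enhancers and other open sites. Promoters rich in CpG dinucleotides are open in most cell types, whereas distal enhancers vary more between cell types and states.

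The sequences of 6 gene starts show the kinds of site the results turn on. Each is the 250 bases before an annotated start, read 5′ to 3′ on the gene's strand from RefSeq GRCm38.p6, the assembly behind mm10, and capitals mark CpG dinucleotides. Armcx2 (chrX:134809222-134809471, minus strand) and Zcwpw1 (chr5:137787081-137787330, plus strand) had the best ranked control-only peaks that touched the start window (these bases and the 50 after the start) of a single gene. Abca14 (chr7:120203714-120203963, plus strand) lay under a matched peak that lost rank in the knockout. Actn4 (chr7:28962333-28962582, minus strand) and Tpm1 (chr9:67049214-67049463, minus strand) lay under the best ranked knockout-only peaks at a start, and Slc19a1 (chr10:77032962-77033211, plus strand) under a matched peak that gained rank.

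Armcx2: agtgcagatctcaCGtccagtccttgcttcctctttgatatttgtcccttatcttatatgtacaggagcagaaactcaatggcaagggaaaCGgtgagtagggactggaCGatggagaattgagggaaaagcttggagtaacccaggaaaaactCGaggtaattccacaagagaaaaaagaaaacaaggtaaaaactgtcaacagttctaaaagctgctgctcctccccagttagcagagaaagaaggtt

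Zcwpw1: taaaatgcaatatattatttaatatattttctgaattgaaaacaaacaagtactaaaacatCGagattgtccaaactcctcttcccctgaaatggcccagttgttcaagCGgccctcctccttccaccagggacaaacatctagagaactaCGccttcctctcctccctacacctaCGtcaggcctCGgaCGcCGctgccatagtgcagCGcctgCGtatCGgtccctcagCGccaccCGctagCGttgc

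Abca14: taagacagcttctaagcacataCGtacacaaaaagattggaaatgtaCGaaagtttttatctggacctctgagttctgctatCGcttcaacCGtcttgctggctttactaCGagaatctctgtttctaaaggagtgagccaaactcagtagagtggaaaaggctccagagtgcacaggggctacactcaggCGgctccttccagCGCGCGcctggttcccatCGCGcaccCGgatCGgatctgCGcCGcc

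Actn4: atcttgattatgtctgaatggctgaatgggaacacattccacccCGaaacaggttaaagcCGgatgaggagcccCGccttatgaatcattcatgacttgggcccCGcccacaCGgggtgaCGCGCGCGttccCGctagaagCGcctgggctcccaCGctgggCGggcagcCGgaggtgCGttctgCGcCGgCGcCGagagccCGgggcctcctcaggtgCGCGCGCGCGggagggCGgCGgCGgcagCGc

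Tpm1: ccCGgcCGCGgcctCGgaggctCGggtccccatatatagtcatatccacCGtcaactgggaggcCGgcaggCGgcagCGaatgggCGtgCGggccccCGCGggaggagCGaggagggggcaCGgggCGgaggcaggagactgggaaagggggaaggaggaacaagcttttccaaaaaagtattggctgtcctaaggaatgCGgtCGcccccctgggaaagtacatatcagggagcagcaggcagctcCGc

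Slc19a1: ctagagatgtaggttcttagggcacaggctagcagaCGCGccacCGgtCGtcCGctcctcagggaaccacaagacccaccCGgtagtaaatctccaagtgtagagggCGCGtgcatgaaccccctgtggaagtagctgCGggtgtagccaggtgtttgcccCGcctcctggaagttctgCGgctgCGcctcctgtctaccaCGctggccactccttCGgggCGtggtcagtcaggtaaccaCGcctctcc

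The Armcx2 stretch held 4 CpG, the fewest of the 6, and its peak covered only bases just after the start. Armcx2 encodes an armadillo repeat protein of the X chromosome. Its peak ranked 14106 in control and 13515 in vehicle, against 277117 in the knockout and 195440 in rotenone. Zcwpw1, which encodes a histone-reading zinc finger protein, held 13 CpG. Its peak ranked 15818 in control, 25112 in vehicle, 63414 in the knockout and 44816 in rotenone. The Abca14 stretch held 15 CpG, Tpm1 19 and Slc19a1 16. Actn4 had the most, with 29 CpG. Low ranks mean strong peaks throughout, so both control-only starts were stronger in the control and vehicle libraries than in the other 2.

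The authors' peak lists differed in length, at 433013 in control, 340240 in vehicle, 585165 in the knockout and 347438 in rotenone, so the 60000 strongest made up 10.3% to 17.6% of a list. Read depth is unknown. The last knockout peak inside the top list had a −log10 p of 8.95 and a fold enrichment of 3.17, and the first one outside had 8.95 and 3.21. For control the values were 11.1 and 3.72 inside and 11.1 and 3.70 outside. Peaks of the top list were narrower in the knockout, with a median of 215 bp against 274 bp in control, 253 bp in vehicle and 200 bp in rotenone. The 9 dermal fibroblast markers had 58 peaks in control and 59 in the knockout, whereas the 9 lymphocyte markers found in the gene table had 1 in each and 8 of the 9 had none. Other marker lists had many peaks as well. The 10 endothelial markers had 72 and 55, and the 10 melanocyte and Schwann cell markers 48 and 49. Such counts therefore do not show which cells were present.

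Sod2 itself had a strong peak over its start in all 4 libraries. At chr17:13007499-13008439 the peak ranked 5579 in control with a fold enrichment of 7.04, and its partner in the knockout ranked 4797 with 6.67. It ranked 5941 in vehicle and 4202 in rotenone. The knockout thus had an open Sod2 start of similar rank. Since the sources used here do not say which part of Sod2 is deleted, this peak does not check the genotype. A peak inside Sod2 at chr17:13009946-13010245 ranked 28094 in control, 28371 in vehicle, 43483 in the knockout and 30683 in rotenone. A narrow peak beyond the gene, at chr17:13026094-13026188, was knockout-only at rank 54522 and ranked 60605 in control, just outside the top list.

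Of the control peaks 72.4% (72.0% to 72.7%) were matched in the knockout, and 74.0% (73.7% to 74.4%) of the knockout peaks were matched in control. The unmatched background was therefore 27.6% of control peaks and 26.0% of knockout peaks. Between control and vehicle it was 16.5% of control peaks and 16.7% of vehicle peaks. Against vehicle in place of control, 16398 knockout peaks were unmatched, and 17427 vehicle peaks were unmatched in the knockout. So the knockout list differed from the control and vehicle lists by more than these differed from each other. This distance was not particular to the knockout. In the rotenone list, also of Sod2+/+ cells, 28.7% of control and 29.7% of vehicle peaks were unmatched, against 24.2% of knockout peaks.

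The strongest open regions were held in common. Of the top 5000 control peaks 99.9% were matched in the knockout, and of ranks 5001 to 15000 98.7%. The share then went down to 87.4% at ranks 15001 to 30000, 63.1% at ranks 30001 to 45000 and 39.9% at ranks 45001 to 60000. For control against vehicle the last 3 shares were 98.4%, 83.0% and 52.7%. The gap between knockout and vehicle as partners was thus widest in the middle of the list, while near its end a peak of either list can be unmatched by a small step in rank.

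**Figure D1:**
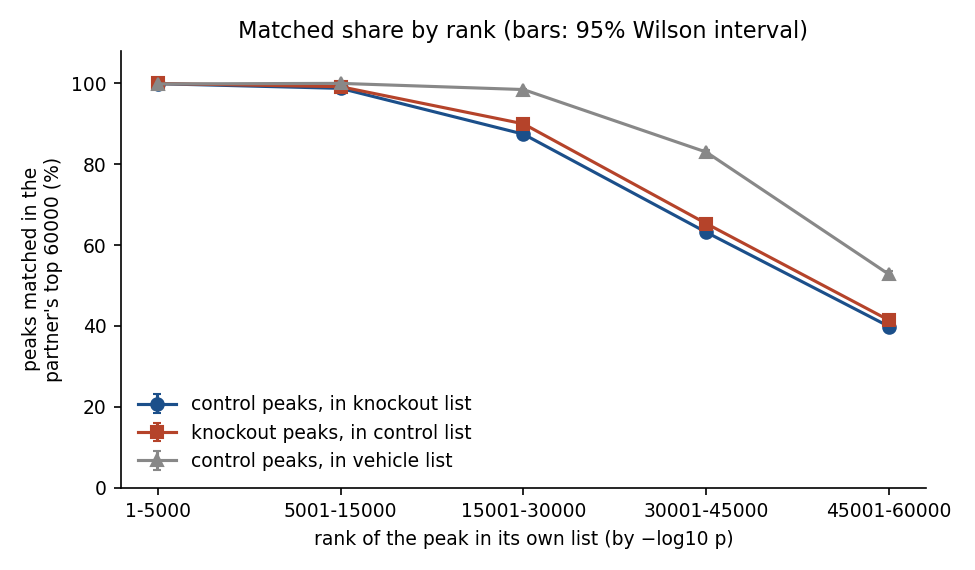
Share of peaks (%) that overlapped a peak in the partner's top 60000, by rank of the peak in its own list, for control against knockout, knockout against control and control against vehicle, with 95% Wilson intervals. All 3 lines start near 100%, and at ranks 30001 to 45000 control peaks were matched at 63.1% in the knockout and 83.0% in vehicle.

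Few unmatched peaks were missing from the other library altogether. Of the 16577 control-only peaks, 8154 (49.2%) overlapped a knockout peak ranked 60001 to 120000, 6419 a deeper one, and 2004 (12.1%) no knockout peak at all. Of the 15597 knockout-only peaks, 8341 (53.5%) overlapped a control peak ranked 60001 to 120000, 4417 a deeper one, and 2839 (18.2%) none. For control peaks unmatched in vehicle, 79.1% lay at vehicle ranks 60001 to 120000 and 4.40% had no vehicle peak. Unmatched peaks were therefore mostly weaker in the partner and not absent, and control peaks lay farther down the knockout list than the vehicle list. Only 7 of the top 5000 control peaks and 4 of the top 5000 knockout peaks were unmatched.

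Control-only and knockout-only peaks differed in form. Control-only peaks had a median rank of 46373, a median width of 162 bp and a median fold enrichment of 4.20, and 44.5% of them were under 150 bp wide. Knockout-only peaks had a median rank of 46989, a median width of 122 bp and a median fold enrichment of 3.47, and 62.2% were under 150 bp. Matched peaks were wider, with medians of 330 bp in control and 257 bp in the knockout. Narrow unmatched peaks were not particular to the knockout, since vehicle peaks unmatched in control had a median width of 114 bp.

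They also differed in how often a second Sod2+/+ library held them. The vehicle list held 60.4% (59.7% to 61.2%) of control-only peaks and 16.7% (16.2% to 17.3%) of knockout-only peaks. The rotenone list held 25.1% of control-only peaks and 39.2% (38.5% to 40.0%) of knockout-only peaks. Of matched peaks the vehicle list held 92.3% in both lists. The vehicle list thus held most control-only peaks and few knockout-only peaks, an order kept in every setting tried.

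Matched peaks formed 43287 pairs in which each peak was the other's best ranked overlap. Their ranks correlated across pairs with Pearson's coefficient of 0.695 and Spearman's of 0.745, against 0.845 and 0.871 over the 49615 control and vehicle pairs. These are descriptions over peaks that share 1 library on each side. The median size of the rank difference was 6526 between control and knockout and 4304 between control and vehicle. From control to knockout 7730 pairs (17.9%) gained over 10000 ranks and 7559 (17.5%) lost as many, against 11.3% and 11.2% from control to vehicle. Gains and losses were near equal in number, which ranks in lists of equal length favour.

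**Figure D2:**
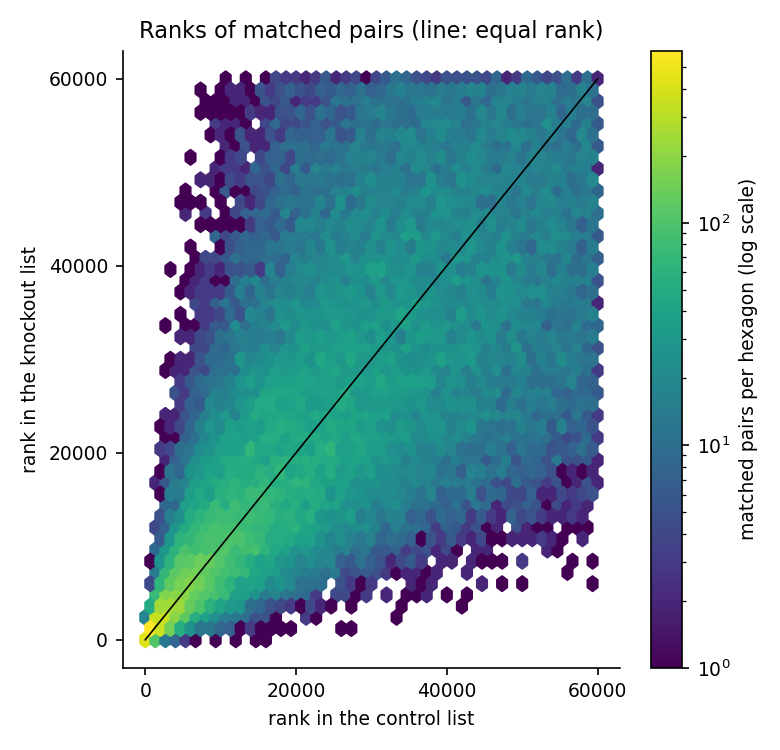
Rank in the control list against rank in the knockout list for the 43287 matched pairs, coloured by the number of pairs per hexagon on a log scale. Low ranks are strong peaks, the line marks equal rank, and pairs spread widely on both sides of it beyond the strongest ranks (r = 0.695).

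The fold enrichment and width of the same regions were lower in the knockout. Fold enrichment was lower in the knockout in 80.2% of pairs, with a median ratio of 0.833, and the knockout peak was the narrower in 74.0%, with a median ratio of 0.857. From control to vehicle the median ratios were 1.05 for fold and 0.960 for width. Lower values were not particular to the knockout. From control to rotenone the median ratios were 0.912 for fold and 0.817 for width, and from vehicle to rotenone 0.866 and 0.868. Fold enrichment is the authors' value within each list and depends on that library's background and depth, which are unknown. Fewer cells with an open site and less opening per cell cannot be told apart in such bulk libraries.

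Position set the classes apart. Control-only peaks lay within 1000 bp of an end of a protein-coding gene in 11.6% (11.1% to 12.1%) of cases, knockout-only peaks in 6.76% (6.37% to 7.16%), and matched peaks in 22.7% of the control and 23.0% of the knockout list. For the windows of 300 bp at annotated gene starts, the shares were 5.18% of control-only, 3.01% of knockout-only, and 18.1% and 17.6% of matched peaks. Knockout-only peaks lay over 100000 bp from a gene in 16.7% (16.1% to 17.3%) of cases, against 10.9% of control-only and 9.72% of matched control peaks. Unmatched peaks of the control and vehicle pair fell between, with 10.5% and 9.46% at gene ends and 12.8% and 13.3% over 100000 bp away.

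The same order was seen among weak peaks alone. At ranks 45001 to 60000 gene ends held 11.8% of control-only, 6.55% of knockout-only, 13.7% of matched control and 16.7% of matched knockout peaks. The order of the gene end shares, knockout-only below control-only below matched, was lost with lists of 15000, where 22.9% of knockout-only and 19.5% of control-only peaks lay at gene ends. The order of the shares over 100000 bp away held in all 8 settings, counting the reported one. Gene deserts had the same order. Windows of 1000000 bp without a protein-coding gene held 4.71% of knockout-only, 2.84% of control-only, 2.26% of matched control and 3.62% of vehicle peaks unmatched in control.

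**Figure D3:**
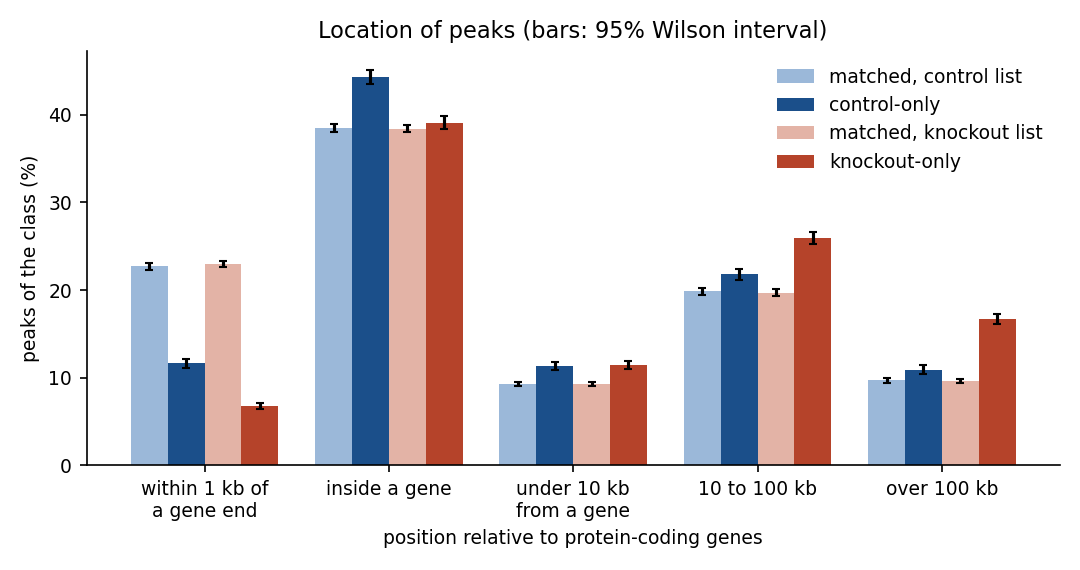
Share of peaks (%) of each class by position relative to protein-coding genes (within 1000 bp of a gene end, inside a gene, and by distance to the nearest gene), with 95% Wilson intervals. Knockout-only peaks had the lowest share at gene ends (6.76%) and the highest over 100000 bp from a gene (16.7%).

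Among the autosomes the unmatched share was even. Control-only peaks made up 25.6% to 29.8% of control peaks per autosome, and knockout-only peaks 23.3% to 27.5% of knockout peaks. On the X chromosome the shares were 32.0% and 33.6%, above every autosome. On the Y chromosome, which had few peaks, 8 of 44 control peaks (18.2%) and 26 of 62 knockout peaks (41.9%) were unmatched. Peaks at gene starts were the most stable in rank: over start windows the median size of the rank difference between control and knockout was 3848, against 6526 over all pairs and 7258 over pairs more than 100000 bp from a gene. The latter pairs had a median gain of 619.5 ranks from control to knockout, against a loss of 128 from control to vehicle, given as a shift of -128. The gain was not particular to the knockout, being 599 from control to rotenone and 593 from vehicle to rotenone. Of whole lists, 11.5% of knockout, 11.6% of rotenone, 10.1% of control and 10.1% of vehicle peaks lay over 100000 bp from a gene.

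Among gene starts, the shifts differed in sign between CpG-poor and CpG-rich windows. Of 32851 start windows of RefSeq, 10035 were touched by a top peak of both lists and 21353 by none. Another 947 were touched by a control peak alone (control-only windows) and 516 by a knockout peak alone (knockout-only windows). A control-only window can lie under a matched control peak whose knockout partner misses the window. The CpG ratio, the observed number of CpG over that given by the C and G content, had a median of 0.791 in windows open in both, 0.638 in control-only, 0.752 in knockout-only and 0.242 in closed windows. Shifts were counted by window, each taking the shift of the best ranked pair it touched, so a pair can count at several starts. Windows with a ratio up to 0.3 had a median shift of -607 ranks from control to knockout over 669 windows with a pair. Those from 0.3 to 0.6 had -701 over 1639 windows. Those from 0.6 to 0.9 had a median shift of 232.5 over 4770 windows, and those over 0.9 had 827 over 2898. A positive shift means a stronger rank in the knockout, so CpG-rich starts stood higher and CpG-poor starts lower in the knockout list.

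The control and vehicle libraries did not show this split. From control to vehicle the 4 median shifts were 28.5, 36, -46 and -212. From vehicle to knockout, which shares the knockout library with the comparison above, they were -761, -525.5, 265 and 1025. From vehicle to rotenone, a comparison that shares no library with control against knockout, they were -687, -463, 476.5 and 1037. Among windows whose pair had a mean rank up to 15000 the control to knockout shifts were -429, -304, 114 and 616, so strong starts alone showed the same signs. Of windows with a control peak, 20.7% of those with a ratio up to 0.3 had no knockout peak, against 5.79% of those over 0.9. Of windows with a knockout peak, 11.6% and 5.11% had no control peak. The split by CpG ratio kept its signs in all 6 alternatives run on it.

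**Figure D4:**
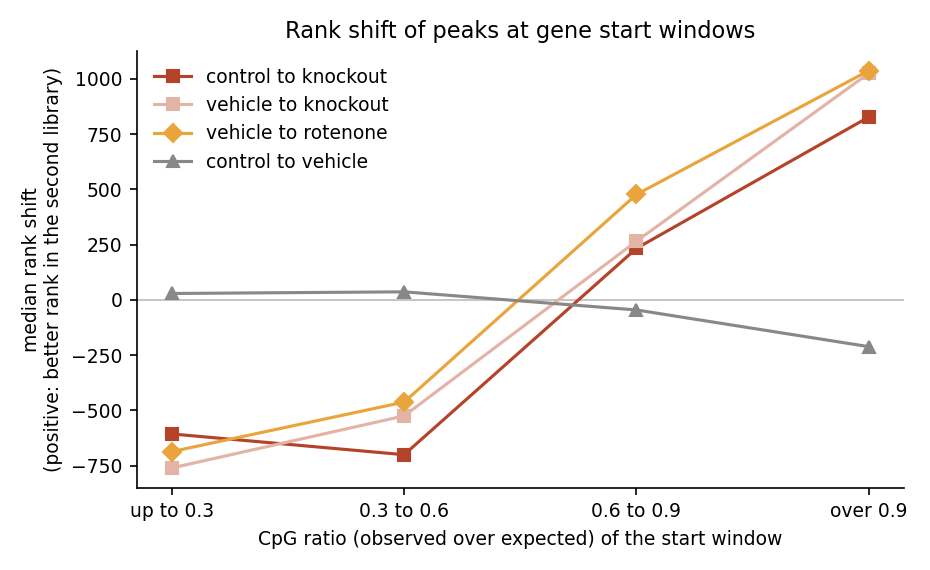
Median rank shift of peaks at gene start windows by CpG ratio of the window, for control to knockout, vehicle to knockout, vehicle to rotenone and control to vehicle. Positive values mean a stronger rank in the second library, and control to knockout runs from -607 to 827 while control to vehicle runs from 28.5 to -212.

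The letters of 9 motifs were counted in the same windows on both strands. The motif of NRF1, a transcription factor of CpG-rich promoters of nuclear genes for mitochondrial proteins, was searched as GCGCA and GCGC with any base between them, the 10 bases in 1 run. It stood in 4.60% of all windows, in 11.4% of those open in both, in 4.96% (3.75% to 6.54%) of control-only and in 13.0% (10.4% to 16.2%) of knockout-only windows. Starts with the motif had a median shift of 1046.5 ranks from control to knockout over 1134 windows with a pair, against 98 over 8842 without it. From control to vehicle the medians were -260 and -53, and from vehicle to rotenone 1186 and 264. Among windows with a CpG ratio over 0.6 the control to knockout medians were 1105 with and 341 without the motif, so the difference was also there among CpG-rich starts. The motif itself holds CpG, and a match does not show that NRF1 binds.

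The AP-1 motif, which FOS and JUN dimers bind, gave no such contrast at gene starts. Searched as TGANTCA, it stood in 7.81% of all windows, 5.58% of those open in both, 8.66% (7.03% to 10.6%) of control-only and 9.88% (7.60% to 12.8%) of knockout-only windows. Starts with it had a median shift of 110 over 555 windows with a pair and those without it 166. Distal peaks, where AP-1 is known to act in fibroblasts, were not searched, as no genome sequence was used here. Among the other 7 motifs the GC box (GGGCGG), which SP1 family factors bind, stood in 35.7% of all windows. Starts with it had a median shift of 386 and those without it -169, against -52.5 and -108 from control to vehicle and 573.5 and 32.5 from vehicle to rotenone. Among windows with a CpG ratio over 0.6 the control to knockout medians were 560.5 and 91. The core of the antioxidant response element (TGACNNNGC), in 12.4% of all windows, went the other way with 53.5 and 193.5, but had 435.5 and 352 from vehicle to rotenone. For the ETS (CCGGAA, 14.9% of windows), CRE (TGACGTCA, 1.79%), CCAAT box (CCAAT, 37.4%), TATA box (TATAAA, 13.6%) and E-box (CACGTG, 7.15%) motifs, medians ran from 74.5 to 284 with and from 157 to 176 without the motif. The median from control to knockout was also the lower with the motif for CRE (74.5 and 166.5), ETS (157 and 176) and AP-1. It was nearly equal for the CCAAT box (164 and 165) and the higher for the TATA box and E-box. The Actn4 window held an AP-1 and a GC box match within the bases printed above.

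Each peak was given to the protein-coding gene it lies in, or else to the one whose end is nearest. Of 17415 genes with a top peak, 5156 had more control-only than knockout-only peaks, 4748 had more knockout-only peaks, and 7511 had equal numbers. The net reached 5 control-only peaks or more in 189 genes and 5 knockout-only peaks or more in 144. Genes with many peaks have more room for a large net.

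Trio, Med13l and Elmo1 were among the genes with the most control-only peaks. Trio, a guanine nucleotide exchange factor for small GTPases, had 37 peaks in control, 37 in vehicle, 28 in rotenone and 20 in the knockout, with 18 control-only and 1 knockout-only. Med13l, a subunit of the Mediator kinase module, had 44, 36, 34 and 32 in the same order, with 18 control-only and 4 knockout-only. Elmo1, an adaptor that activates Rac with DOCK proteins, had 39 in control and 27 in the knockout, with 12 control-only and 0 knockout-only. In Trio and Med13l the vehicle count lay at or below control and above the knockout.

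Clmp, a cell adhesion molecule, had 20 peaks in control, 16 in vehicle, 10 in rotenone and 9 in the knockout, and 9 of its 11 control-only peaks were in the vehicle list. Col5a1 (chr2:27886381-28039510), the collagen V chain that sets the diameter of collagen fibrils, had 17 in control, 14 in vehicle, 10 in rotenone and 8 in the knockout. Its 11 control-only peaks had fold enrichments of 3.46 to 5.24, 7 of them lay inside the gene, and 1 lay just outside the gene at chr2:27886210-27886350 with rank 48982 in control and 88318 in the knockout. For both genes the control and vehicle counts stood above the other 2. Gpc6, a heparan sulfate proteoglycan, had 35 in control, 32 in vehicle, 29 in rotenone and 25 in the knockout. Krr1, Ctif and Lrmda were also in this set, with 9, 16 and 16 knockout peaks against 18, 26 and 24 in control. The size of these nets depended on the length of the lists. With lists of 30000 the net went from -17 to -2 for Trio, from -11 to -2 for Clmp, from -9 to -1 for Col5a1 and from -9 to 0 for Lrmda. Of the 20 nets on both sides, 19 changed by more than 1.5 times with lists of 30000, 16 with partners down to rank 120000 and 14 with peaks of at least 150 bp. With lists of 15000 the net of Elmo1 and Gpc6 changed sign.

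**Figure D5:**
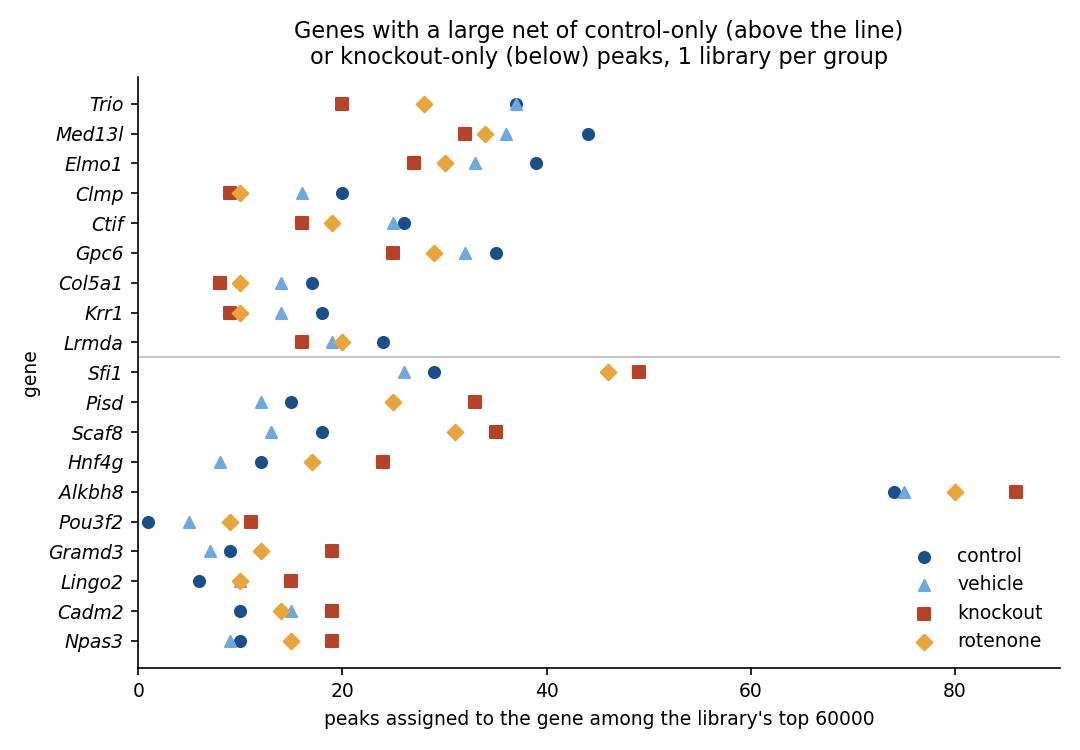
Peaks assigned to each gene among the top 60000 of control, vehicle, knockout and rotenone, for genes with the largest net of control-only peaks (above the line) and of knockout-only peaks (below it). Control and vehicle lie to the right of the knockout in the upper genes, as for Clmp with 20 and 16 against 9. The genes were chosen on control and knockout, so only vehicle and rotenone are apart from the choice.

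Several genes with the most knockout-only peaks had low fold enrichment there. Sfi1, a centrosome protein gene, had 49 peaks in the knockout, 46 in rotenone, 29 in control and 26 in vehicle, but its 25 knockout-only peaks had a median fold enrichment of only 1.77. Pisd, a phospholipid enzyme of mitochondria, had 33 in the knockout, 25 in rotenone, 15 in control and 12 in vehicle, with a median fold of 2.31 at its 22 knockout-only peaks. Scaf8 had 35, 31, 18 and 13 in that order, with a median of 2.53 at 22 knockout-only peaks. Ranked by fold enrichment in place of −log10 p, the net of knockout-only peaks went from 20 to 0 for Sfi1, from 18 to 0 for Pisd, from 17 to 4 for Scaf8 and from 12 to 1 for Hnf4g. Alkbh8 likewise had a median fold of 1.58 at its 15 knockout-only peaks, with 86 peaks in the knockout and 74 in control. No knockout-only peak of Scaf8, Hnf4g or Alkbh8 lay inside the gene, against 18 of 25 for Sfi1 and 8 of 22 for Pisd. Sfi1, Scaf8, Hnf4g and Alkbh8 lie close to the first bases of their chromosomes, from positions 3131850, 3114972, 3508030 and 3335231. Repeats and assembly gaps there were not examined.

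The remaining genes of this side were Pou3f2, Gramd3, Lingo2, Cadm2 and Npas3. Pou3f2, a POU domain transcription factor of the nervous system, had 11 peaks in the knockout, 9 in rotenone, 5 in vehicle and 1 in control. None of its 10 knockout-only peaks lay inside the gene, and 6 of them were over 100000 bp away. The best, at chr4:22553012-22553137, ranked 21177 in the knockout, 20716 in rotenone, 86908 in vehicle and 267862 in control. Lingo2 and Cadm2, cell surface proteins of neurons, had 15 and 19 peaks in the knockout, 10 and 14 in rotenone, 10 and 15 in vehicle and 6 and 10 in control, so for both the vehicle count lay between control and knockout. Npas3, a neuronal transcription factor, had 19 in the knockout, 15 in rotenone, 9 in vehicle and 10 in control, and Gramd3 had 19, 12, 7 and 9. With lists of 30000 the net of Pou3f2 went from 10 to 1. The net of Lingo2 and Pisd changed sign with lists of 15000.

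Matched peaks at gene ends that moved most in rank were described among 8621 pairs at least 150 bp wide in both lists. Tll1, a metalloprotease that processes procollagen, lost most: its peak at chr8:64206529-64206875 ranked 13218 in control and 58057 in the knockout, but 21872 in vehicle and 17760 in rotenone. Abca14, a lipid transporter of the ABC family, had its start peak at rank 5303 in control with a fold of 10.8 and 10538 in vehicle with 8.70, against 47420 in the knockout with 3.42 and 39528 in rotenone with 4.16. Zdhhc15, a palmitoyltransferase, ranked 12355 in control, 18319 in vehicle, 53443 in the knockout and 93542 in rotenone. Tceal8, on the X chromosome like Zdhhc15, ranked 17411, 15458, 54553 and 152741 in the same order. At Abca14, Zdhhc15 and Tceal8 the rotenone rank thus lay on the side of the knockout. At Cend1 and Nudt16l1, also among the 10 that lost most, it did not: Cend1 ranked 18770 in control, 26245 in vehicle, 57583 in the knockout and 28732 in rotenone, and Nudt16l1 ranked 16692, 34493, 53765 and 33549 in the same order.

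Serpinb5, the serine protease inhibitor maspin of epithelia, ranked 16949 in control, 15785 in vehicle, 54224 in the knockout and 40528 in rotenone. Osgepl1, a mitochondrial enzyme that modifies transfer RNA, ranked 12300 in control, 16702 in vehicle, 49667 in the knockout and 40906 in rotenone. These 2 peaks had similar ranks in both Sod2+/+ libraries without rotenone.

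Peaks at gene starts that gained rank included those of Wdr12, Eral1 and Slc19a1. Wdr12, a factor of large ribosomal subunit assembly, ranked 58471 in control and 14060 in the knockout, with 44283 in vehicle and 26977 in rotenone. Eral1, a GTPase that assembles the small mitochondrial ribosomal subunit, ranked 53921 in control, 35031 in vehicle, 12775 in the knockout and 25093 in rotenone. Slc19a1, the reduced folate carrier, ranked 50350 in control with a fold of 4.00 and 8606 in the knockout with 7.04, but 20114 in vehicle and 23745 in rotenone. For Slc19a1 the vehicle rank was thus nearer to the knockout than the control rank was. Dhrs7b ranked 52281 in control, 25922 in vehicle, 14803 in the knockout and 29088 in rotenone, again with vehicle between.

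Slc27a4, a fatty acid transport protein of the skin, had a gene end peak at rank 58041 in control and 61925 in vehicle, against 21004 in the knockout and 23483 in rotenone. Ect2, an exchange factor for small GTPases in cell division, had one at rank 54908 in control and 118759 in vehicle, against 15436 in the knockout and 12867 in rotenone. At these 2 genes the knockout and rotenone ranks lay together and apart from both other libraries.

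The strongest knockout-only peaks lay mostly inside genes. Fut8, which adds core fucose to glycoproteins, had one at chr12:77263921-77264150 with rank 6082 and a fold of 8.06 in the knockout, 9522 in rotenone, 57704 in vehicle and 70207 in control. Prkar2a, a regulatory subunit of protein kinase A, had one at chr9:108734639-108734954 with rank 8634 in the knockout, 8111 in rotenone, 41131 in vehicle and 71698 in control. Efemp1, the matrix glycoprotein fibulin-3, had one at chr11:28912524-28912724 with rank 9002 in the knockout, 17900 in rotenone, 36652 in vehicle and 75379 in control. All 3 were also in the rotenone list and, at weaker ranks, in the vehicle list.

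Actn4, an actin crosslinker, and Tpm1, a tropomyosin of actin filaments, had knockout-only peaks over gene starts, whose sequences are printed above. The Actn4 peak at chr7:28962171-28962652 ranked 8833 in the knockout with a fold of 7.01 and 10327 in rotenone with 7.11, against 65351 in control with 3.60 and 47345 in vehicle with 4.50. The Tpm1 peak at chr9:67049141-67049628 ranked 15857 in the knockout, 24454 in rotenone, 54282 in vehicle and 72372 in control. Thbs1, the matricellular protein thrombospondin-1, had a peak of 782 bp at chr2:118126995-118127776, over one end of the gene, that ranked 10546 in the knockout and 10652 in rotenone, against 87493 in vehicle and 112419 in control. All 3 peaks had knockout and rotenone on one side and control and vehicle on the other.

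The strongest control-only peaks included elements in Msi2, an RNA-binding protein of stem cells, and Unc5b, a netrin receptor. The Msi2 peak at chr11:88356918-88357246 ranked 8928 in control, 10871 in vehicle, 43641 in rotenone and 62805 in the knockout. The Unc5b peak at chr10:60807615-60808214 ranked 9270 in control, 9036 in vehicle, 75298 in the knockout and 103042 in rotenone. In Astn1 the rotenone rank of 5772 was the strongest of the 4 libraries, against 9315 in control, 16979 in vehicle and 61007 in the knockout, so this site was weak in the knockout only.

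The series title names JunB, and the AP-1 genes were therefore described first among the gene lists. Junb, at chr8:84976909-84978748, had 3 peaks in each library, all at the gene's ends and all matched. Over its start the peak ranked 19161 in control, 23412 in vehicle, 16278 in the knockout and 18068 in rotenone, and the fold enrichments of control and knockout were 4.16 and 4.16. The others went from 21392 to 16249 and from 19939 to 18201. The knockout ranks of Junb were the stronger in all 3 peaks, by less than the median rank difference of 6526 over all pairs.

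Jun had 18 peaks in control, 23 in vehicle, 17 in the knockout and 18 in rotenone, mostly distal. Its start peak ranked 5085 in control, 5286 in vehicle, 4123 in the knockout and 2882 in rotenone. Of its 5 control-only peaks, all 5 were in the vehicle list. The best of them, at chr4:95137463-95138125, ranked 14703 in control, 13047 in vehicle, 32456 in rotenone and 60895 in the knockout. The start of Jun thus stayed close in rank while several distal elements ranked lower in the knockout, beside 4 knockout-only peaks.

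Fos had 6 peaks in control, 6 in vehicle, 5 in rotenone and 3 in the knockout, and Fosb had the same counts. The 3 control-only peaks of Fos ranked 30994, 34077 and 53099 in control and 66153, 82313 and 99277 in the knockout, while its start peak ranked 25302 and 26941. Those of Fosb ranked 22129, 25048 and 58998 in control and 63221, 73140 and 257758 in the knockout. Both genes had all control-only peaks as weaker peaks in the knockout. Maf, a related basic leucine zipper factor, had 11 peaks in control and 15 in the knockout, with 2 control-only and 6 knockout-only. Over the 13 AP-1 genes 30.6% of 72 control peaks were control-only and 21.5% of 65 knockout peaks were knockout-only, against 27.6% and 26.0% over all peaks, a net that changed sign when partners were sought down to rank 120000.

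Genes of the insulin-like growth factor pathway, in which the ligand IGF1 from fibroblasts acts on IGF1R, were mixed. Igf1 (chr10:87858265-87937047) had 9 control and 8 knockout peaks. Its strongest, upstream at chr10:87787607-87787928, ranked 1558 in control with a fold of 15.3, 1935 in vehicle, 4463 in the knockout with 8.86 and 6513 in rotenone. A peak inside Igf1 ranked 13993 in control, 16453 in vehicle, 8334 in the knockout and 4555 in rotenone. The 2 elements of Igf1 thus moved opposite ways, each with vehicle close to control. Igf1r had 10 control-only and 5 knockout-only peaks and Igfbp3, a binding protein, had 6 and 1. The matched peaks of Igfbp3 went the other way, with a median gain of 15988.5 ranks in the knockout over 10 pairs. Over 12 pairs of Igf1r the median shift was 341, and over the 124 pairs of the list it was -929. Irs1, which relays the receptor's signal, had 1 and 5. Of the list's 175 control peaks 51 (29.1%) were control-only, and of its 168 knockout peaks 40 (23.8%) were knockout-only, near the 27.6% and 26.0% over all peaks. The net changed sign with lists of 30000. Between control and vehicle the list had 39 control peaks and 26 vehicle peaks unmatched, a gap of similar size without the knockout.

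Among inhibitors of the cell cycle, Cdkn1a (p21) and Cdkn2a (p16 and p19Arf) each had a start peak that ranked lower in the knockout. A peak at chr17:29093605-29093816, over a second annotated start of Cdkn1a, was control-only, with rank 33305 in control, 24180 in vehicle, 60167 in rotenone and 92308 in the knockout. Elsewhere in Cdkn1a a peak ranked 20416 in control, 15647 in vehicle, 9455 in rotenone and 9021 in the knockout. Cdkn1a had 3 peaks in each library, with 1 control-only and 1 knockout-only, a net of 0. The start peak of Cdkn2a at chr4:89294468-89295253 ranked 14847 in control, 18956 in vehicle, 37216 in the knockout and 56890 in rotenone. The senescence and p53 list of 17 genes held 21 control-only peaks of 82 (25.6%) and 14 knockout-only peaks of 78 (17.9%), both below the shares over all peaks. Its net of -7 kept its sign in every setting, and between control and vehicle 12 peaks of the list were unmatched on either side.

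Collagens and other matrix genes, the list with the most peaks, held more control-only than knockout-only peaks. Of 271 control peaks 93 (34.3%) were control-only, and of 242 knockout peaks 62 (25.6%) were knockout-only, against 27.6% and 26.0% over all peaks, so only the control-only share stood above the background. The net of -31 kept its sign in every setting but came to as little as -2. Beside Col5a1, the neighbouring basement membrane genes Col4a1 and Col4a2 had 18 and 17 peaks in control, 20 and 19 in vehicle, 11 and 12 in the knockout and 12 and 12 in rotenone. Col4a1 had 8 control-only and 1 knockout-only peak, and Col4a2 6 and 0. In both genes the knockout and rotenone counts were below the other 2. Of the 30 members 16 had a net of control-only peaks, 9 of knockout-only peaks and 5 a net of 0. Col5a2, another collagen V chain, went the other way with 3 control-only and 7 knockout-only peaks, as did Col12a1 with 2 and 5 and the crosslinking enzyme gene Lox with 0 and 3. Between control and vehicle, 51 control peaks and 38 vehicle peaks of the list were unmatched, so control had more there too.

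Fibroblast identity genes held 71 control-only peaks of 213 (33.3%) and 51 knockout-only peaks of 196 (26.0%), against 27.6% and 26.0% over all peaks. The net of -20 stayed negative in every setting. Tcf4, a basic helix-loop-helix factor, had 26 peaks in control, 25 in vehicle, 22 in rotenone and 20 in the knockout, with 10 control-only and 4 knockout-only. Lrig1, a transmembrane brake on EGF receptors, had 8 and 5. Of the 28 members 15 had a net of control-only peaks, 8 of knockout-only peaks and 5 a net of 0. The transcription factor genes Tcf21, with 0 control-only and 3 knockout-only peaks, Prrx1 and Twist2, each with 1 and 3, and Meox1, with 0 and 2, were on the knockout-only side. The list had 35 and 41 unmatched peaks between control and vehicle. Members with a gene end peak numbered 17 of 28 in control, 15 in vehicle, 14 in the knockout and 16 in rotenone. For the 9 dermal fibroblast markers the counts were 18 control-only of 58 (31.0%) and 19 knockout-only of 59 (32.2%).

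Notch signalling genes had 33.3% control-only peaks of 126 and 17.3% knockout-only peaks of 104, against 27.6% and 26.0% over all peaks. Hes1, the classic Notch target, had 24 peaks in control, 21 in vehicle, 16 in the knockout and 15 in rotenone, with 9 control-only and 1 knockout-only. Notch2, a receptor, had 16, 20, 12 and 12 in that order, with 5 and 0, and its 5 control-only peaks all lay inside the gene. Both genes had knockout and rotenone counts below control and vehicle. The net of -24 reached 0 in 1 setting. Between control and vehicle the same list had 22 and 24 unmatched peaks.

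Antioxidant genes, which clear superoxide and peroxide, held 31 control-only peaks of 105 (29.5%) and 17 knockout-only peaks of 96 (17.7%). Over all peaks the shares were 27.6% and 26.0%. The list's net of -14 reached 0 in 1 setting. Between control and vehicle the list had 19 control peaks and 10 vehicle peaks unmatched, so control also had more than the other library without the knockout. Gsr, glutathione reductase, had 6 control-only and 1 knockout-only peak. Its best control peak, at chr8:33660399-33660899, ranked 5245 in control with a fold of 9.42 and 6878 in vehicle, against 27506 in the knockout with 4.34 and 35003 in rotenone. Its best control-only peak, at chr8:33653355-33653629, ranked 13081 in control, 32589 in vehicle, 55802 in rotenone and 96467 in the knockout. Nfe2l2, the NRF2 factor that switches on antioxidant genes, had 14 peaks in control, 12 in vehicle, 11 in the knockout and 8 in rotenone. Both Gsr peaks thus ranked lower in the knockout and in rotenone than in control, while gene by gene the net was control-only in 11 of 25 members, knockout-only in 5 and 0 in 9.

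Lists of the stress and energy pathways held similar numbers of control-only and knockout-only peaks. Nuclear genes of respiration held 16 control-only peaks of 64 (25%) and 14 knockout-only peaks of 60 (23.3%). Glycolysis and hypoxia genes held 21 of 103 (20.4%) and 20 of 104 (19.2%), both below the 27.6% and 26.0% over all peaks, but 3 control-only and 14 knockout-only peaks with lists of 15000. The integrated and mitochondrial stress response held 13 of 45 (28.9%) and 10 of 44 (22.7%). The net of each of these 3 lists changed sign in at least 1 setting. Factors secreted by senescent cells held 20 of 73 (27.4%) and 21 of 73 (28.8%), and interferon and NF-kB genes 14 of 68 (20.6%) and 9 of 63 (14.3%).

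Matrix proteases held 21 control-only peaks of 92 (22.8%) and 22 knockout-only peaks of 93 (23.7%), against 27.6% and 26.0% over all peaks. Adamts5, an aggrecanase, had 2 and 7. Contractile genes held 28 of 106 (26.4%) and 26 of 106 (24.5%), although 15 of 21 had a gene end peak in the knockout against 11 in control, 13 in vehicle and 14 in rotenone. TGF-beta and BMP genes held 47 of 179 (26.3%) and 42 of 175 (24.0%), with Smad3 at 8 and 3, and Wnt genes 35 of 134 (26.1%) and 29 of 128 (22.7%). Proliferation genes held 32 of 121 (26.4%) and 21 of 113 (18.6%), and growth factors and receptors 42 of 170 (24.7%) and 52 of 185 (28.1%).

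The housekeeping list went the other way, mostly through Eef2 and Ywhaz. It held 6 control-only peaks of 34 (17.6%) and 18 knockout-only peaks of 46 (39.1%), against 27.6% and 26.0% over all peaks. The net changed sign with lists of 15000. Eef2, translation elongation factor 2, had the largest net of the list, with 1 peak in control, 4 in vehicle, 6 in rotenone and 8 in the knockout. Its control peak at chr10:81182303-81183090 ranked 3459 in control and 6219 in the knockout, with a fold of 7.78 and 5.23. The 7 knockout-only peaks spread along and beside this short gene with folds of 2.73 to 3.66. Ywhaz, a 14-3-3 protein, had 6, 8, 10 and 10 peaks in the same order. Of the list's net of 12 knockout-only peaks, 7 came from Eef2 and 4 from Ywhaz. Among the 16 members, 3 had a net of control-only peaks, 6 of knockout-only peaks and 7 a net of 0.

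Lists of markers of other cells were mixed, and 3 of them held more control-only than knockout-only peaks by 8 or more. Over all peaks the shares were 27.6% control-only and 26.0% knockout-only. Endothelial markers held 25 control-only peaks of 72 (34.7%) and 7 knockout-only peaks of 55 (12.7%), mostly at Erg (10 and 2) and Cdh5 (6 and 2). Their net changed sign with lists of 30000 and 15000. Keratinocyte markers held 11 of 31 (35.5%) and 2 of 22 (9.09%), and myeloid markers 13 of 26 (50%) and 5 of 18 (27.8%). The net of both lists changed sign in 1 setting. No myeloid marker had a gene end peak in the knockout or vehicle, but 1 of 10 had one in control and 3 of 10 in rotenone. Keratinocyte markers had 3 of 12 in every library, and 5 myeloid markers had no peak in either list. Unmatched peaks of these 3 lists between control and vehicle numbered 13 and 13, 5 and 3, and 8 and 4. Skeletal muscle markers held 6 of 14 (42.9%) and 3 of 11 (27.3%). Adipocyte markers held 6 of 20 (30%) in both lists and melanocyte and Schwann cell markers 14 of 48 (29.2%) and 13 of 49 (26.5%). Pericyte and smooth muscle markers went the other way, with 4 of 23 (17.4%) and 8 of 28 (28.6%). Lymphocyte markers had none unmatched. The part of these markers in the counts of the lists above was not tested.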

How the data were processed

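Per the labels' protocols, nuclei of 50000 dermal fibroblasts were tagmented with Tn5 and sequenced as paired ends, with 1 library per group. Tools named in the submitters' processing notes are Bowtie2, bedtools, MACS2 and HOMER, with the build mm10. For their versions and settings, and for any Tn5 shift, the entry is not given in the sources used here. One list of peaks per library was deposited by the authors, without headers, and was read as MACS2 broad peaks. The deposited score followed the −log10 q except in 14 to 31 peaks per list and was not used. The deposited fold enrichment is a ratio over local background. The −log10 p and −log10 q are the authors' values, and the lowest −log10 q of each list was 1.00, so weak peaks are included. Depth is unknown.

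Peaks were ranked and matched within and between lists as described above, after conversion to 1-based positions. In pairs each peak is the best ranked overlap of the other. Genes came from the RefSeq table of GRCm38.p6 with 21887 protein-coding genes, without strand, so gene ends include starts and 3′ ends. Start windows cover 250 bases before to 50 after a start, with 32851 windows of 27025 genes. None on chromosome 18 was used here. Of 464 symbols in the lists 463 were found (Trac was not). Members and lists were chosen with earlier results of these data known, and the CpG analysis and all motifs other than AP-1 were chosen after seeing these data.

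Genes named are examples from these sets, leaving out predicted genes: the 10 with the largest net of unmatched peaks each way, the 10 gene end pairs at least 150 bp wide that moved most each way, the 10 best ranked unmatched peaks of each list at that width, the genes Sod2, Junb, Jun, Igf1, Cdkn1a and Cdkn2a, and in each list at most 3 members of largest absolute net. One gene of these sets is not reported here. The genes of the printed sequences were picked after their values were seen, and so were single peaks named within a gene and members named for a net against that of their list. Python 3.11.15, numpy 2.4.6, pandas 2.3.3, statsmodels 0.14.6 and matplotlib 3.10.9 were used. The matching code was checked on the control list against a copy of it, with 200 peaks removed and 200 planted in gaps. There 200 of 200 planted losses and 200 of 200 planted gains were recovered. With a copy as partner this checks the overlap code only and not how well differences between 2 libraries are found. The alternatives took lists of 30000 or 15000, ranked by fold, asked for an overlap of 50% of the shorter peak or a width of at least 150 bp, sought partners down to rank 120000, kept autosomes, widened gene ends to 2500 bp or kept genes within 50000 bp.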

Additional observations from a re-analysis of the deposited data

Results flagged for a closer look

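The rotenone library took no part in the comparison of knockout and control, yet its list held 39.2% of knockout-only peaks. The vehicle list held 16.7% of them, and the rotenone list held 25.1% of control-only peaks. The difference has no replicate and was not tested.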

How the results depend on the processing

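No paired analysis was possible because each group has 1 library. For the same reason no replicate could be left out. With lists of 30000 the matched shares were 76.4% of control and 77.2% of knockout peaks, with 7090 control-only and 6831 knockout-only peaks, of which 14.5% and 13.9% lay at gene ends and 65.3% and 20.9% were in the vehicle list. With lists of 15000 these values were 75.7%, 76.2%, 3643, 3571, 19.5%, 22.9%, 67.3% and 20.6% in the same order. With partners down to rank 120000 they were 86.0%, 87.9%, 8423, 7256, 10.3%, 3.96%, 84.8% and 22.2%. Ranked by fold, the matched shares were 71.7% and 73.2%, and control-only peaks lay at gene ends in 10.9% and in the vehicle list in 59.2%. With peaks of at least 150 bp the matched shares were 72.8% and 74.9%, the gene end shares 13.1% and 5.34%, and the vehicle shares 63.8% and 15.7%. With a window of 2500 bp the gene end shares were 18.1% and 12.1%. The gene end order held in 8 of 9 settings including the reported one, and the order of the vehicle shares in 8 of 8. Of 26 lists with a net other than 0, 3 kept its sign in every setting.

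With lists of 15000 the net of knockout-only over control-only peaks was 1 for Elmo1, 2 for Gpc6, -1 for Lingo2 and -1 for Pisd. No peak named by its rank shift changed direction where it was recomputed, in 115 values. These peaks were picked for large shifts or as the best ranked unmatched peaks. They were recomputed only ranked by fold, with peaks of at least 150 bp and on autosomes. A change of direction was thus unlikely from the start, and the count does not measure how stable the shifts are. Start windows with a CpG ratio over 0.6 had a median shift of 439, or 177 to 1220.5 under the alternatives, and those up to 0.6 had -663.5, or -661 to -248. These were added after seeing the data. Where a value moved, the cause was not tested.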
